A study of Mus musculus with 9 samples.

Results

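Transcripts of 8 genes at the sending and receiving ends of Hedgehog signalling were followed in the developing temporomandibular joint of the mouse, the hinge between lower jaw and skull. The genes were the ligands Ihh, Shh and Dhh, the ligand release protein gene Disp1, the signal transducer gene Smo and the coreceptor genes Cdon, Boc and Gas1. They were chosen by name, with earlier results of these data known, and every probe set that the platform annotation assigns to 1 of these symbols was taken. This gave 18 probe sets of the 45037 on the array that are not array controls, with 1 for Ihh, 2 each for Shh, Dhh, Cdon and Disp1, and 3 each for Smo, Gas1 and Boc. These genes are 8 of 18194 gene symbols with a probe set of their own. The groups, of 3 arrays each, were the condyle, which is the head of the lower jaw in the joint, the fossa, which is the socket in the skull that receives it, and the whole body. All came from mouse embryos at embryonic day 16.5, with laser capture from frozen tissue as the treatment named for every sample. The labels give no genotype, strain or drug, and they do not say whether a sample pools embryos or shares an embryo with another sample. The p-values therefore measure the spread between these samples, which may in part be technical. The whole body group also holds cartilage, bone and joints, so it is a mixture and not a tissue without Hedgehog signalling.

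Hedgehog ligands are lipid-bearing secreted proteins that leave the cell with the help of Dispatched, the product of Disp1. On the receiving cell Patched holds Smoothened, the product of Smo, in check until ligand binds, and Cdon, Boc and Gas1 are cell surface proteins that bind ligand together with Patched and promote the signal. In the growing skeleton Ihh is made by chondrocytes as they begin to enlarge and acts on neighbouring chondrocytes and on the perichondrium, and loss of Ihh in mice disturbs growth of the condyle and separation of the joint disc. Shh is known from epithelia and midline tissues, and Dhh from Schwann cells and the gonads.

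Values are log2 intensities as deposited. A probe set was called above background on an array when it exceeded the highest of the array's 27 Bacillus subtilis controls, a limit of 2.87 to 2.94 on the condyle arrays, 2.89 to 3.52 on the fossa arrays and 3.09 to 3.36 on the whole body arrays. The share of probe sets above it was 45.4% to 46.9% in condyle, 30.3% to 43.8% in fossa and 37.4% to 45.9% in whole body, with fossa array 1 the lowest. The 75th percentile of all values was 4.80 to 4.89 in condyle, 4.03 to 4.29 in fossa and 4.35 to 4.54 in whole body, so the brighter probe sets as a class stood higher on the condyle arrays. The 3 prime minus 5 prime difference of the Gapdh control, a measure of how far the labelled RNA was shortened, was 5.33 to 6.86 in condyle, 3.69 to 5.31 in fossa and 5.34 to 6.52 in whole body. The control probe set for 18S ribosomal RNA read 6.70 to 10.65 in condyle, 7.45 to 10.16 in fossa and 13.21 to 13.65 in whole body, so it set whole body apart from both joint tissues. The part of these measures in the results below was not tested. Of 10 chondrocyte markers 8 passed as higher in condyle than in whole body, and 8 as higher in fossa. Of all genes, 7.05% and 4.20% passed as higher in these comparisons. Both joint tissues thus carried a cartilage signal, with Sox9 among the passing markers in condyle and not in fossa. Of the 18 probe sets, 6 were above background on all 3 arrays of at least 1 group, 8 more on some arrays only, and 4 on none.

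No ligand probe set was above background on all 3 arrays of any group. Ihh, the ligand of growing cartilage, had 1 probe set, which read 2.19, 2.19 and 2.19 on the condyle arrays, 2.23, 2.20 and 2.22 on the fossa arrays, and 2.23, 2.21 and 2.16 on the whole body arrays. All 9 values lay under the limit, so no level of Ihh can be stated for any group, and a low level cannot be told from none. Of 5 measured markers of enlarging chondrocytes, Col10a1, which encodes the collagen of enlarged chondrocytes, was also at background on all 9 arrays. Pth1r, the parathyroid hormone receptor gene of maturing chondrocytes, and Panx3 passed as higher in both joint tissues than in whole body. The differences for Pth1r were 2.71 ± 0.50 (SE, log2) in condyle and 3.10 ± 0.50 in fossa, and for Panx3 3.92 ± 0.73 and 2.67 ± 0.73. Mmp13 and Ibsp were above background on every array, and neither passed. Dhh had 2 probe sets, of which 1422127_at ran from 2.20 to 2.28 over the 9 arrays, and 1434959_at from 2.40 to 3.03, with only fossa array 2 above the limit. Of the 4 measured Schwann cell markers, Sox10 and Erbb3 were above background on all 3 arrays of every group and Foxd3 was at background in every group, and the mean of the 4 was 3.28 to 3.35 in condyle, 3.02 to 3.60 in fossa and 2.89 to 3.43 in whole body, with 0 called. The probe set Shh 1427571_at was under the limit on all 9 arrays, at 2.46 to 2.62.

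The other probe set of Shh, 1436869_at, was singled out after its values were seen. It read 2.46, 4.0 and 3.55 on the condyle arrays, 2.57, 2.57 and 2.52 on the fossa arrays, and 2.68, 2.71 and 2.82 on the whole body arrays. Condyle arrays 2 and 3 were above background and condyle array 1 lay below every other array, so the groups overlapped. With the other group's values raised to the limit, the measured condyle mean was 1.11-fold that of whole body (adjusted p = 0.297). It was 1.15-fold that of fossa (adjusted p = 0.185), and neither difference passed. These folds are not lower bounds, because condyle array 1 was itself under the limit. In these captured samples fewer cells that carry a transcript and less transcript per cell cannot be told apart. Without condyle array 1 the log2 difference was 1.04 against whole body (adjusted p = 0.0172) and 1.23 against fossa (adjusted p = 0.00616), and both passed. Without condyle array 2 they were 0.27 and 0.45, and after centring on the 75th percentile 0.21 and 0.12, and these did not pass. The mean of 8 epithelial markers, which stand for a known source of Shh, was 7.29, 8.27 and 7.62 on condyle arrays 1 to 3, 7.57, 4.28 and 7.47 on fossa arrays 1 to 3, and 6.45 to 6.48 in whole body. Among the condyle arrays it was lowest on array 1, as Shh was. On fossa arrays 1 and 3 it was 7.57 and 7.47, within the condyle range, with Shh under the limit at 2.57 and 2.52. Of the 8 markers 0 passed between condyle and whole body. Krt18 and Epcam were lower in fossa than in whole body (log2 differences of -2.52 and -1.38), where 15.9% of all genes were lower. Epcam was higher in condyle than in fossa by 1.17, where 16.2% of all genes were higher. The part of epithelium in the Shh signal was not tested.

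Disp1, whose product releases ligand from the cell that makes it, was dim. Its probe set 1434795_at, likewise singled out after the values were seen, read 3.40, 3.84 and 2.70 on the condyle arrays, 3.94, 3.60 and 2.97 on the fossa arrays, and 2.27, 2.39 and 2.72 on the whole body arrays. It was above background on 2 condyle arrays, 2 fossa arrays and 0 whole body arrays, and all 3 fossa arrays lay above all 3 whole body arrays. The folds over whole body values raised to the limit were 1.09 in condyle (adjusted p = 0.198) and 1.25 in fossa (adjusted p = 0.087). Neither difference passed, and these folds are not lower bounds, because each joint tissue also had an array under the limit. With each array centred on its median, fossa was higher by 1.19 with adjusted p = 0.0415. The other Disp1 probe set, 1435132_at, lay between 2.65 and 3.46 and was above background on condyle array 1 and fossa array 2 only.

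**Figure D1:**
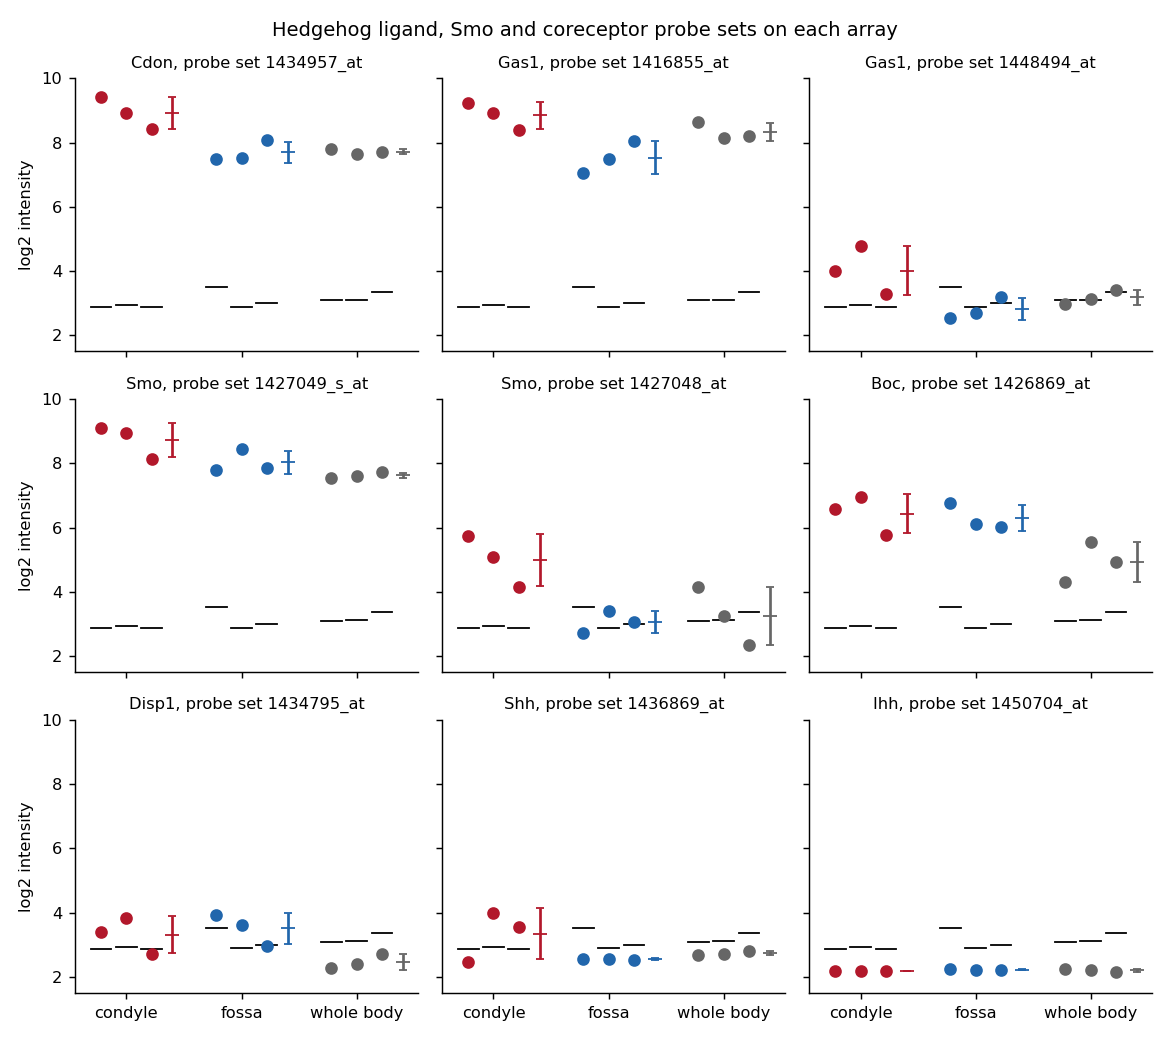
Log2 intensity of 9 of the 18 probe sets on each array, with the condyle, fossa and whole body arrays from left to right and arrays 1 to 3 within each group. Coloured points are arrays, short black lines the background limit of that array, and the bar beside each group its mean ± SD (n = 3). Cdon, Gas1 1416855_at, Smo 1427049_s_at and Boc stand clear of the limit on all 9 arrays, while Ihh lies under it on all 9.

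Smo, the gene of the membrane protein that carries the signal into the cell, was measured well by 1427049_s_at. It read 9.10, 8.95 and 8.14 on the condyle arrays, 7.80, 8.45 and 7.86 on the fossa arrays, and 7.56, 7.60 and 7.72 on the whole body arrays. Every condyle and fossa array lay above every whole body array, and condyle array 3 fell within the fossa range. The order of the means was condyle, fossa and whole body, and no neighbouring pair passed the test. Condyle exceeded whole body by 1.10 ± 0.28 (SE, log2; 2.15-fold; adjusted p = 0.069). This difference passed when 1 probe set per gene entered the fit (adjusted p = 0.043), when only probe sets above background did (adjusted p = 0.029), without condyle array 3 (1.40, adjusted p = 0.024) and after centring on the 75th percentile (0.71, adjusted p = 0.0456). Over all alternatives the size ran from 0.71 to 1.40. Fossa differed from whole body by 0.41 ± 0.28 (adjusted p = 0.362), and condyle from fossa by 0.69 ± 0.28 (adjusted p = 0.145). Without condyle array 3 the last difference was 0.99 and passed (adjusted p = 0.0335), while it was 0.03 after quantile normalization and after centring on the 75th percentile.

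The dimmer Smo probe set 1427048_at read 5.73, 5.10 and 4.14 on the condyle arrays, 2.72, 3.42 and 3.05 on the fossa arrays, and 4.16, 3.24 and 2.35 on the whole body arrays. All 3 condyle arrays exceeded their background limits, as did 2 arrays of each other group. The condyle arrays lay above all fossa arrays and overlapped the whole body arrays. Condyle was at least 3.16-fold above fossa (log2 difference of the measured values 1.93 ± 0.55, adjusted p = 0.0577), just short of the threshold. It passed with a variance trend (adjusted p = 0.0377), with only the 2 groups fitted (adjusted p = 0.049) and without condyle array 3 (2.35, adjusted p = 0.0468), whole body array 1 (adjusted p = 0.0406) or whole body array 3 (adjusted p = 0.0426). Against whole body condyle was at least 2.65-fold higher (adjusted p = 0.124). The remaining Smo probe set, 1442215_at, ran from 2.62 to 3.90 and was above background on fossa array 3 and whole body array 1 only.

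Cdon, which encodes an immunoglobulin-family coreceptor, was the member whose difference passed against whole body. Its bright probe set 1434957_at read 9.41, 8.91 and 8.44 on the condyle arrays, 7.49, 7.52 and 8.08 on the fossa arrays, and 7.80, 7.65 and 7.72 on the whole body arrays. All condyle arrays lay above all others, and the fossa and whole body arrays overlapped. Cdon was higher in condyle than in whole body by 1.20 ± 0.26 (2.29-fold, adjusted p = 0.0454) and higher in condyle than in fossa by 1.22 ± 0.26 (2.33-fold, adjusted p = 0.0229). Fossa and whole body, neighbours in the order of the means, differed by -0.03 ± 0.26 (adjusted p = 0.959).

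The Cdon call against whole body was kept without condyle array 3 or fossa array 3 and lost without any of the other 7 arrays, at adjusted p = 0.059 to 0.118, with differences of 0.95 to 1.44 over the 9 such fits. After quantile normalization the difference was 0.99 (adjusted p = 0.101), and after centring on the 75th percentile 0.80, which passed. Over all 18 alternatives the call against whole body was kept in 6. The call against fossa was lost without condyle array 2 (adjusted p = 0.065), fossa array 1 (0.0691) or fossa array 2 (0.0651), with differences of 0.97 to 1.46. Here quantile normalization and centring on the 75th percentile each gave 0.56, and neither passed (adjusted p = 0.252 and 0.108). The call against fossa was kept in 10 of 18 alternatives, and that of the second Cdon probe set, given next, in 6 of 15. The second Cdon probe set, 1421452_at, read 2.92, 2.67 and 2.62 on the condyle arrays, 2.45, 2.42 and 2.42 on the fossa arrays, and 2.76, 2.71 and 2.65 on the whole body arrays. It also passed between condyle and fossa, by 0.31 ± 0.08 (adjusted p = 0.0426), but only condyle array 1 was above background, so no fold is given, and the difference was -0.36 after centring on the 75th percentile.

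Gas1, which encodes a lipid-anchored coreceptor, stood in a different order. Its bright probe set 1416855_at read 9.23, 8.92 and 8.39 on the condyle arrays, 7.05, 7.49 and 8.06 on the fossa arrays, and 8.65, 8.13 and 8.20 on the whole body arrays. Condyle lay above fossa without overlap, and all 3 fossa arrays were below all 3 whole body arrays. The whole body mean lay between the condyle and fossa means, and the condyle and whole body arrays overlapped. Gas1 was higher in condyle than in fossa by 1.31 ± 0.32 (2.49-fold, adjusted p = 0.0333). The neighbours in this order did not pass, with condyle minus whole body at 0.52 ± 0.32 (adjusted p = 0.31) and fossa minus whole body at -0.79 ± 0.32 (adjusted p = 0.139). The call between condyle and fossa was lost without condyle array 1 (adjusted p = 0.101), condyle array 2 (0.0933), fossa array 1 (0.0829), fossa array 2 (0.0821) or whole body array 2 (0.0516), with differences of 1.07 to 1.58. Quantile normalization and centring on the 75th percentile each gave 0.65 (adjusted p = 0.273 and 0.102). Over all 18 alternatives the Gas1 call was kept in 8.

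A second Gas1 probe set, 1448494_at, read 4.0, 4.79 and 3.28 on the condyle arrays, 2.55, 2.70 and 3.21 on the fossa arrays, and 2.97, 3.14 and 3.42 on the whole body arrays. Its order of groups was the same as that of the bright one, and condyle again lay above fossa without overlap. Condyle was at least 1.76-fold above fossa, with 1 fossa array above background, which did not pass (adjusted p = 0.0755). It passed without condyle array 3 (1.58, adjusted p = 0.0289). The remaining Gas1 probe set, 1456322_at, was under the limit on all 9 arrays, at 2.21 to 2.35.

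Boc, which encodes a coreceptor related to Cdon, was, like Smo 1427049_s_at, brighter on every joint array than on any whole body array. Its bright probe set 1426869_at read 6.59, 6.94 and 5.78 on the condyle arrays, 6.76, 6.11 and 6.03 on the fossa arrays, and 4.30, 5.56 and 4.93 on the whole body arrays. Condyle and fossa overlapped. The difference was 1.51 ± 0.42 for condyle (2.84-fold, adjusted p = 0.0899) and 1.37 ± 0.42 for fossa (2.59-fold, adjusted p = 0.0688), and neither passed. Both passed among probe sets above background alone (adjusted p = 0.0326 and 0.0387). The fossa difference also passed under all 3 other scalings, at 1.51 to 1.66 (adjusted p = 0.0363 to 0.0493), and the condyle difference under centring on the 75th percentile (1.11, adjusted p = 0.0454). Condyle and fossa differed by 0.14 ± 0.42 (adjusted p = 0.861), and by -0.59 and -0.53 after quantile normalization and centring on the 75th percentile, so no order between the joint tissues can be given. Of the other Boc probe sets, 1427516_a_at read 3.44, 5.23 and 2.45 on the condyle arrays, against 2.39 to 3.13 in fossa and 2.30 to 2.36 in whole body, a spread within condyle larger than its difference from either group. The last, 1427517_at, was above background on whole body array 1 alone, at 3.92.

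**Figure D2:**
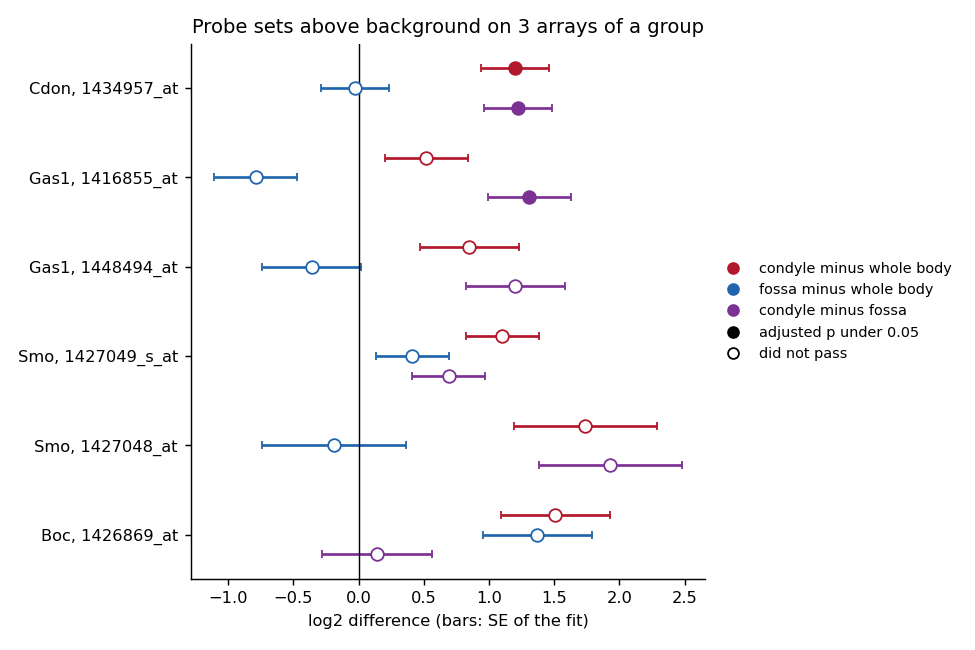
Log2 differences (horizontal axis) of the 6 probe sets above background on 3 arrays of a group in each of the 3 comparisons (condyle over whole body in red, fossa over whole body in blue, condyle over fossa in purple), with the SE of the fit as bars and filled points for adjusted p under 0.05. Cdon is filled in both condyle comparisons and Gas1 1416855_at between condyle and fossa, while Boc lies at 1.51 and 1.37 over whole body with open points.

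The promoters of Cdon, Gas1 and Smo are shown because these are the member genes with a probe set whose 3 condyle arrays lay above all 3 fossa arrays and were above background. Smo met this through its dim probe set 1427048_at, which did not pass, while its bright one overlapped between condyle and fossa. Of all probe sets, whether or not above background, 50.6% did not overlap between these groups, counting both directions. The share that met the narrower rule, with condyle the higher group and above background, is not given here. RefSeq gives a promoter entry for 6 of the 8 genes on build GRCm38.p6, each reaching from 250 bases before to 50 bases after an annotated start, and Shh and Boc have none here. Capitals mark the letters GGGTGG or, on the other strand, CCACCC, the core of the site read by the Gli transcription factors. The Cdon entry lies at chr9:35451826-35452125 on the plus strand, the Gas1 entry at chr13:60177486-60177785 on the minus strand and the Smo entry at chr6:29735247-29735546 on the plus strand.
Cdon: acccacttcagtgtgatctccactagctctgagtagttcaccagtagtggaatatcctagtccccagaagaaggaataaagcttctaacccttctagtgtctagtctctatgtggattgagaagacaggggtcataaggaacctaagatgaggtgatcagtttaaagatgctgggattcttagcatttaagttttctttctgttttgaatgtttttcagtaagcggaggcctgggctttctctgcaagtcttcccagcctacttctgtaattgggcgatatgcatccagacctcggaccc
Gas1: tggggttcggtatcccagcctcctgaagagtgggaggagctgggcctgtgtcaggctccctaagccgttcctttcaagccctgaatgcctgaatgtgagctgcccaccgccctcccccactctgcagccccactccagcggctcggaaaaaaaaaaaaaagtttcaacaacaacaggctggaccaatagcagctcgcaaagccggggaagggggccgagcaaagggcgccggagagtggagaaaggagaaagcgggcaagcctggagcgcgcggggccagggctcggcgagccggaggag
Smo: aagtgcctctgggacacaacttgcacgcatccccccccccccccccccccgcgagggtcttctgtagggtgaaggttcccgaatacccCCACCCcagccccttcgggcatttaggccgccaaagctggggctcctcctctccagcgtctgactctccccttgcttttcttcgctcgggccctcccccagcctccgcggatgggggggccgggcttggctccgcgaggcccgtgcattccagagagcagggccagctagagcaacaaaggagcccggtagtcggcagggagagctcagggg

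The core was found 1 time in the Smo window, on the minus strand with its first base at position -162 from the start, and not in those of Cdon and Gas1. Of 32851 promoters in the table, 31.5% hold the core on either strand, so its presence in Smo is common. The longer Gli site TGGGTGGTC, which contains the core, was in none of the 3 windows and in 0.253% of all promoters. Ihh held 2 cores, Dhh 1, and the 2 Disp1 entries none. A match of letters is a description of the window and not a bound site.

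Condyle was set against whole body to find members that differ in the head of the joint. Of the 18 probe sets 1 was higher (Cdon) and 0 lower, where 4.21% and 1.99% of all probe sets passed. Among the 6 bright ones, of which Smo 1427048_at and Gas1 1448494_at were bright through condyle alone, 1 was higher and 0 lower, against backgrounds of 9.79% and 4.02%. At an unadjusted p under 0.05 there were 5 of the 18, where 23.9% of all probe sets passed. A single call is close to the share on the whole array. The median difference of the 18 was 0.28, against -0.05 over all probe sets and 0.21 over all bright probe sets. In 8 of the 18 the condyle and whole body arrays did not overlap, 4 in each direction, where 55.8% of all probe sets did not overlap.

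For fossa against whole body, limma called 0 of the 18 probe sets, where 3.69% passed as higher and 13.1% as lower on the whole array. At an unadjusted p under 0.05 there were 4, against 31.3% of all probe sets. They were Boc 1426869_at and Disp1 1434795_at, higher in fossa, and Gas1 1416855_at and the background-level Cdon 1421452_at, lower. Among the 6 bright members 0 passed, where 4.29% of bright probe sets were higher and 21.8% lower. In 7 of the 18 the arrays did not overlap, against 40.4% of all probe sets. The median difference was 0.00 for the members, -0.08 for all probe sets and -0.32 for all bright probe sets. Both comparisons use the same whole body arrays, so they are not independent of each other.

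Between condyle and fossa 3 of the 18 were higher and 0 lower, with backgrounds of 12.0% and 4.02%. The 3 were the bright probe sets of Cdon and Gas1 and the dim one of Cdon. At an unadjusted p under 0.05 there were 7, where 30.3% of all probe sets passed, and in 10 the arrays did not overlap, against 50.6%. Among the 6 bright members 2 were higher, where 24.3% of all bright probe sets were higher and 0.960% lower, and the median difference of all bright probe sets was 0.57. Cdon and Gas1 were thus higher on arrays where bright probe sets in general were higher, and the part of that general shift in their differences was not tested. As deposited, 74.9% of the calls on the whole array were higher in condyle, against 52.5% after quantile normalization, which left 1 member call, the dim Cdon probe set. The differences of the 4 brightest members under each setting are drawn in the plot of settings.

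**Figure D3:**
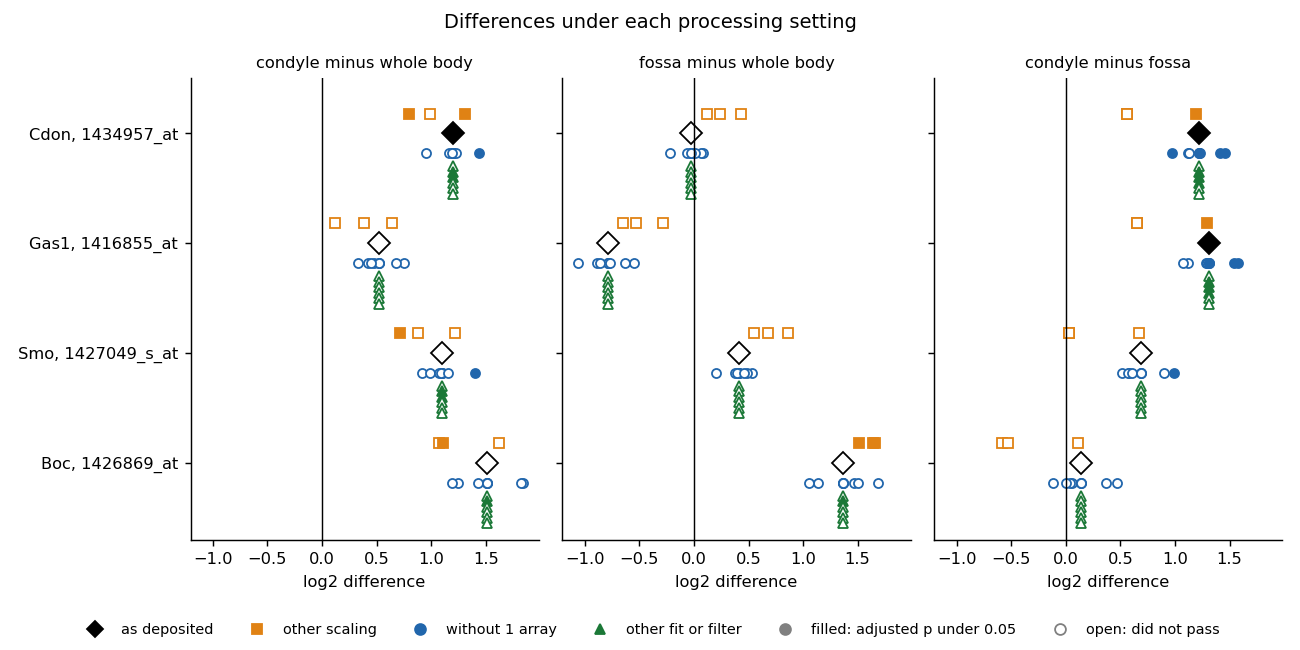
Log2 differences of the bright probe sets of Cdon, Gas1, Smo and Boc in the 3 comparisons, as deposited (diamonds), under 3 other scalings (squares), without each array in turn (circles) and under other fits or filters (triangles), with filled symbols for adjusted p under 0.05. Between condyle and fossa, Cdon and Gas1 lie near 1.22 and 1.31 as deposited and at 0.56 and 0.65 under quantile normalization.

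Of 22 other pathway genes in the list, 20 had a probe set here, and Scube2 and Lrp2, which encodes a ligand-binding receptor, were at background in all 3 groups. In condyle against whole body 4 were higher and 0 lower, where 7.05% and 2.91% of all 18193 genes were, each by its brightest probe set. The median difference was 0.97, against -0.03 over all genes. Evc and Evc2, whose products form a complex near the base of the cilium that acts just below Smoothened, were at least 3.64-fold (adjusted p = 0.00209) and 2.78-fold higher (1.48 ± 0.27, adjusted p = 0.0258). Gli2, the main activator of target genes, was higher by 2.21 ± 0.24 (adjusted p = 0.00442), and Pth1r was the fourth. The receptor gene Ptch1 differed by 1.67 ± 0.38 and missed the threshold (adjusted p = 0.0529).

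In fossa against whole body 4 of the 20 were higher and 0 lower, where 4.20% and 15.9% of all genes were, and the median was 0.25, against -0.11 over all genes. They were Pth1r (adjusted p = 0.00728), Gli2 (1.44 ± 0.24, adjusted p = 0.00865), Evc (at least 1.61-fold, adjusted p = 0.0118) and Scube1, which encodes a secreted protein of a family that helps ligand leave the cell (at least 1.20-fold, adjusted p = 0.0187). Between condyle and fossa 3 were higher and 1 lower, where 16.2% and 2.82% of all genes were, and the median was 0.53, against 0.21. Evc2 was higher in condyle by 2.23 ± 0.27 (4.69-fold, adjusted p = 0.00331), Evc by 1.18 ± 0.20 (adjusted p = 0.0109) and Gli3, which encodes the main repressor form, by 1.31 ± 0.32 (adjusted p = 0.0362), while Scube1 was at least 1.47-fold lower (adjusted p = 0.0143) and at background on all condyle arrays. Evc2, Evc and Gli3 thus passed in the same direction as Cdon and Gas1, but 3 of 20 is close to the 16.2% of all genes that were higher.

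**Figure D4:**
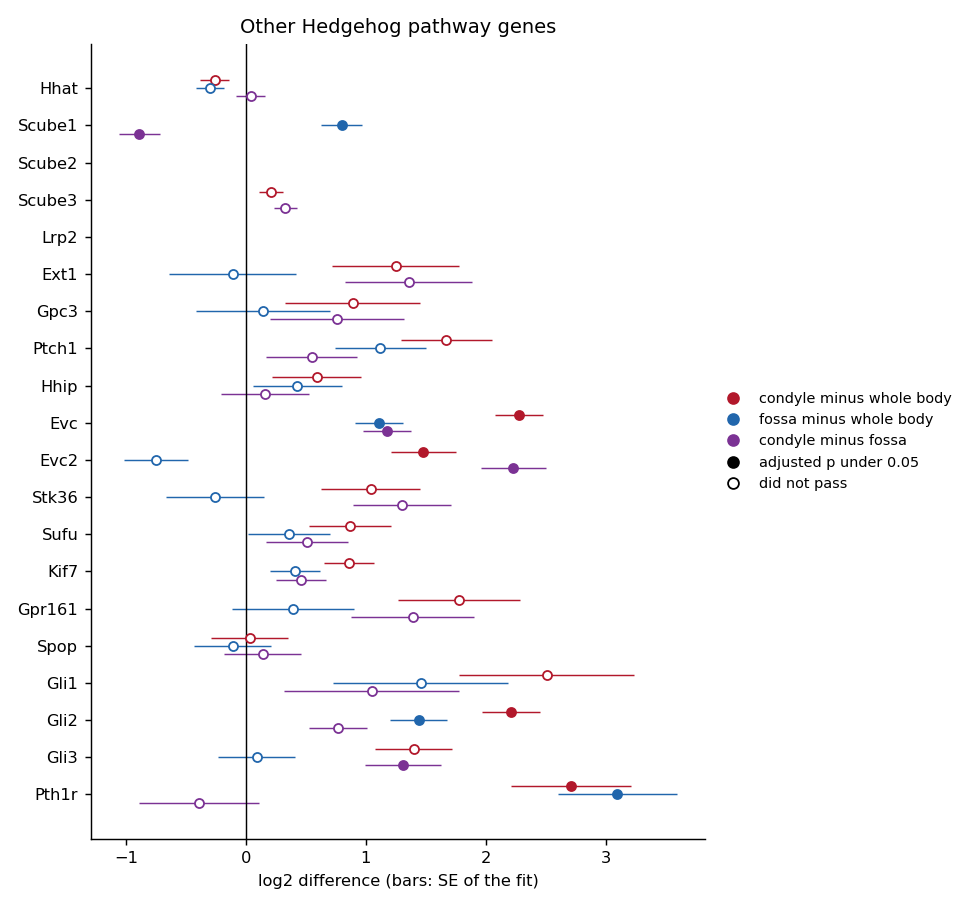
Log2 differences (horizontal axis) of the other Hedgehog pathway genes, 1 probe set per gene, in the 3 comparisons, with the SE of the fit as bars and filled points for adjusted p under 0.05; comparisons where both groups were at background are left out. Evc and Evc2 have filled points to the right in condyle minus whole body and in condyle minus fossa, and Scube1 has a filled point to the left in condyle minus fossa.

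The probe sets of other genes whose pattern over the 9 arrays was most like that of a called member were found by the root mean square difference of values centred on each probe set's mean. For Cdon 1434957_at they were Rassf1, a tumour suppressor gene (0.13 on the log2 scale), Eloa, which encodes a transcription elongation factor subunit (0.18), and Sp1, a general transcription factor gene (0.21), where the median of 17028 candidates was 0.69. For Gas1 1416855_at they were Sulf1, which encodes a heparan sulfate sulfatase (0.18), Isoc1 (0.19) and the mitochondrial carrier gene Slc25a39 (0.20), with a median of 0.68 over 17027 candidates. Sulf1 read 8.56, 8.41 and 7.64 on the condyle arrays, 6.56, 7.18 and 7.33 on the fossa arrays, and 7.96, 7.93 and 7.63 on the whole body arrays, the same order of groups as Gas1. These genes share the arrays and their overall brightness with the members, and they were picked from many by likeness.

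Other cell types that the captured tissue could hold were followed by fixed marker lists. Of all genes, 7.05% passed as higher and 2.91% as lower in condyle against whole body. The shares were 4.20% and 15.9% in fossa against whole body, and 16.2% and 2.82% in condyle against fossa. Of 4 measured osteoblast markers 0 passed in condyle against whole body and 2 in fossa, Col1a1 and Dmp1, with list means of 6.47 to 8.55 in condyle, 7.0 to 8.63 in fossa and 5.31 to 5.42 in whole body. Of 10 chondrocyte markers only Sox9 passed between condyle and fossa, as higher in condyle, and the list means were 8.06 to 9.17 in condyle, 7.77 to 9.25 in fossa and 4.71 to 5.01 in whole body. Of 6 endothelial markers, Pecam1, Tie1 and Emcn were at background in every group. Pecam1 and Tie1 were nonetheless called lower in condyle than in fossa. Muscle markers had means of 4.65 to 6.17 in condyle, 4.94 to 6.39 in fossa and 6.66 to 6.92 in whole body. Of the 7, Mylpf and Ckm were called lower in fossa than in whole body, where 15.9% of all genes were. Ckm was at background in both groups. Liver markers had means of 4.73 to 5.58 in condyle, 2.98 to 5.23 in fossa and 12.34 to 12.83 in whole body, with 4 of 5 lower in each joint tissue. Neuronal markers had means of 4.43 to 7.43 in condyle, 4.56 to 7.28 in fossa and 6.21 to 6.29 in whole body, and none of the 5 passed. Of 3 markers of the gonad, a known source of Dhh, Amh and Sox8 were at background in every group. Even so, Amh was called lower in condyle than in fossa, and Sox8 lower in fossa than in whole body. Nr5a1 was at least 1.45-fold higher in condyle than in fossa and at least 1.33-fold lower in fossa than in whole body. Only 1 fossa array was above background for Nr5a1. The part of these cell types in the member differences was not tested.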

How the data were processed

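RNA from 9 samples was hybridised as biotin-labelled cRNA to an Affymetrix mouse array, per the labels' protocols. The authors deposited linear intensities, from 3.25 to 67158.9, with 1 column per array. The tool limma is named in the submitters' processing notes without a version. The authors' background correction, normalization and probe summary are not given in the sources used here, and the deposited normalization was kept. The log2 of the deposited intensity was taken after a floor of 1, under which no value lay. Gene symbols came from the platform annotation, and 0 of them changed when updated through RefSeq. For genes of the lists the brightest probe set on average was used.

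All 45037 probe sets that are not controls were tested with limma 3.58.1 in R 4.3.3 (lmFit and eBayes) in 1 fit of 3 groups, with 6 residual and 0.99 prior degrees of freedom and Benjamini-Hochberg adjustment over all of them. The threshold was adjusted p under 0.05. Differences have their SE from the fit. A fold is "at least" where the dimmer group had an array at background, and none is given where the brighter group's mean lay under the limit. The number of arrays limits the precision. The fit was tested on simulated data in which only bright probe sets of low spread changed, by more than the called members did. That test does not cover changes of the members' size or near background.

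Values on all arrays are given for every member probe set above background on 3 arrays of a group or past the threshold, and ranges for the rest, with additions named as such. Up to 4 passing genes of the pathway list are named per comparison. The members and lists were chosen with earlier results of these data known. Alternatives were quantile normalization, centring on the median or the 75th percentile, a floor of 16, fits of bright probe sets or of 1 probe set per gene, of 2 groups, with a variance trend or a replicate block, and without each array.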

Additional observations from a re-analysis of the deposited data

Results flagged for a closer look

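Results were listed for a second look where the effect against whole body differed between condyle and fossa, tested as condyle minus fossa in the limma fit. Cdon 1434957_at was 1.22 higher in condyle on the log2 scale (adjusted p = 0.0229), with 3 of 3 condyle arrays above all fossa arrays. Gas1 1416855_at was 1.31 higher (adjusted p = 0.0333), and its condyle mean of 8.85 and fossa mean of 7.53 lay on opposite sides of the whole body mean of 8.33. Cdon 1421452_at was 0.31 higher (adjusted p = 0.0426), with 1 of the 9 arrays above background.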

How the results depend on the processing

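With condyle against whole body, the 1 member probe set that passed became 0 after quantile normalization, with a floor of 16, with a variance trend, with the replicate block and with only the 2 groups fitted, 2 with 1 probe set per gene (Cdon and Smo, higher), 4 among bright probe sets (all higher, 1 of them Smo 1427048_at, bright through condyle alone) and 9 after centring on the 75th percentile (3 higher, and 6 lower of which 5 were under the limit in both groups). Without 1 array it was 0 to 2, with 2 without condyle array 3 and 0 without condyle array 2, fossa array 1 or 2, or any whole body array. With fossa against whole body the 0 became 1 after quantile normalization, after centring on the 75th percentile and among bright probe sets (Boc, higher), 1 with a variance trend and with 2 groups (Cdon 1421452_at, lower), 6 after centring on the median (all higher, with Boc and Disp1 among them and the others on no array above background), and 0 to 1 without 1 array, with 1 without condyle array 1. Between condyle and fossa the 3, all higher, became 1 after quantile normalization and with the replicate block (Cdon 1421452_at), 1 with 2 groups (Smo 1427048_at), 0 with a floor of 16, 5 with a variance trend (4 higher, 1 lower) and 7 after centring on the 75th percentile, which were other probe sets, all lower, 4 of them under the limit in both groups. Without 1 array it was 0 to 6, with 6 without condyle array 3, 0 without condyle array 2 or fossa array 1 or 2, and 1 without whole body array 2. Centring on the 75th percentile moved the median of all probe sets to -0.45, 0.19 and -0.63 in the 3 comparisons, against -0.05, -0.08 and 0.04 as deposited, and centring on the median moved it to 0.06 and 0.07 in the comparisons with whole body. The share of all calls that were higher was 68.0%, 21.9% and 74.9% as deposited, 47.6%, 47.4% and 52.5% after quantile normalization, 78.6%, 67.5% and 62.7% after centring on the median, and 8.90%, 48.0% and 6.08% after centring on the 75th percentile. Of the results for single probe sets, called or not, 399 kept direction and call, 38 lost the call, 23 gained it and 16 reversed. Each main call held in 6 to 10 of its 15 to 18 alternatives. The reversals were, after centring on the 75th percentile, Cdon 1421452_at at -0.37 (condyle minus whole body) and -0.36 (condyle minus fossa), Smo 1427048_at at 0.08 and Cdon 1434957_at at 0.24 (fossa minus whole body), and Boc 1426869_at at -0.53 (condyle minus fossa). Cdon 1434957_at in fossa minus whole body was also 0.43 after quantile normalization, 0.12 after centring on the median, and 0.08, 0.06 and 0.01 without fossa array 1, fossa array 2 or whole body array 1, in a range of -0.22 to 0.08 without 1 array. Boc 1426869_at in condyle minus fossa was -0.59 after quantile normalization and -0.12 without condyle array 2 (range -0.12 to 0.47). Cdon 1421452_at in condyle minus whole body was -0.06 without condyle array 1 (range -0.06 to 0.09), Smo 1427048_at in fossa minus whole body 0.27 without whole body array 1 (range -0.64 to 0.27), and Disp1 1434795_at in condyle minus fossa 0.11 and 0.03 without condyle array 3 or fossa array 1 (range -0.46 to 0.11). The cause was not tested. The array numbers do not show paired samples: 2 of 9 same-numbered pairs had deviations correlated above 0.1, and 4 of 9 arrays correlated best with an array of their own number. With the numbers as a replicate block Cdon 1434957_at had adjusted p = 0.114 against whole body and 0.065 against fossa, and Gas1 1416855_at 0.0913. With the background limit at the 75th percentile of the controls, 11, 9 and 6 member probe sets were above it on 3 arrays in condyle, fossa and whole body, in place of 6, 4 and 4.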
